A study of Mus with 35 samples.

Results

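The 41 genes described here are immediate early genes and other activity-regulated genes. Neurons and other cells switch on the first kind within minutes of a stimulus, and some of the others follow in a later wave. The 41 were picked by symbol, with earlier results of these data known, and each matched 1 of the 55573 gene entries of the deposited expression table. By role they were 18 transcription factors, 9 signalling brakes and kinases, 6 growth and stress response regulators and 8 synaptic, secreted and enzyme effectors. RNA was measured in 35 brain libraries of male C57BL/6J mice that were wild type (WT) or carried Hnrnph2 P209L or R206W, mutations of an X-linked splicing factor gene, on their single X chromosome. Every mouse, controls included, had received 1 injection of 30 µg antisense oligonucleotide (ASO) into the cerebral ventricles at postnatal day 2 to 4, either a control ASO or an ASO against Hnrnph2. The P209L cohort was collected at 8 weeks and at 3 weeks of age, and the R206W cohort at 3 weeks. Cohort, age, genotype and ASO made 12 groups; treated P209L mice at 3 weeks were represented by 2 libraries here and each other group by 3. Each title gives its library a name of its own, and some of these names share a stem, but the labels do not say what names or stems stand for. The p-values therefore measure the spread between these libraries.

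Immediate early genes are transcribed without new protein synthesis when calcium and growth factor signals activate factors such as CREB, SRF and MEF2 that already sit in the nucleus. Their first products are mostly transcription factors, which then drive a later wave of synaptic and secreted proteins, together with phosphatases and other inhibitors that shut the signalling down again. Their transcripts are short-lived, and in brain their levels follow recent neuronal activity, handling, stress hormones and the time between death and freezing. The deposited unit, TPM, divides reads by transcript length and scales each library to the same total, so levels of different genes can be compared. In bulk brain RNA, fewer cells expressing a gene and less RNA per cell cannot be told apart.

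The targeted gene followed the labels. Hnrnph2 stood at 88.2 to 116.82 TPM in the 18 control ASO libraries and at 6.95 to 26.68 TPM in the 17 Hnrnph2 ASO libraries. The labels name whole brain in 1 place and dissected cortex in another. Markers of the cerebellum were present in every library, at a summed 778.29 to 2149.11 TPM. Between 16235 and 16649 genes reached 1 TPM per library. How deeply each library was sequenced cannot be read from TPM.

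The secreted neuropeptide precursors had the highest levels of the 41. Scg2 (secretogranin II) averaged 232 TPM over the 35 libraries and Vgf 200 TPM. The zinc finger factor Egr1 followed at 164 TPM, and then Arc, the cytoskeletal protein that removes AMPA receptors from synapses, at 116 TPM. The orphan nuclear receptor Nr4a1 averaged 100 TPM. The AP-1 subunits differed widely, with Junb at 83.1 TPM, Fos at 69.0, Jun at 40.2, Fosl2 at 16.0 and Fosb at 12.2. Among the phosphatases that dephosphorylate MAP kinases, Dusp1 (63.3 TPM) and Dusp14 (50.5) stood above Dusp6 (46.0), Dusp5 (30.6) and Dusp4 (6.42). The other brakes were Rgs2, which limits G protein signalling (37.7 TPM), the kinase Sik1, which restrains CREB coactivators (12.3), the pseudokinase Trib1 (11.7) and Tiparp (10.8). Apart from Dusp4, the lowest of the 41 were Egr2 (8.86 TPM), Apold1 (6.11), Klf4 (5.34), Ptgs2 (3.45), Inhba (3.04) and Maff (2.05). The remaining members lay between these, from 10.8 TPM for the neurotrophin Bdnf to 62.0 TPM for the synaptic scaffold Homer1. One value per gene cannot separate the short activity-induced Homer1a from the long form, the Bdnf promoters, or FosB from its truncated form.

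These genes were also among the more variable ones. Within groups, 39 of the 41 had a standard deviation (SD) of log2(TPM + 1) above the median of all tested genes, and 20 were in the top 10 percent. Their median SD was 0.25, against 0.136 over all tested genes. Fos was the most variable of them (0.53) and Rgs2 the least (0.12). Over all libraries Fos ran from 4.52 to 128.41 TPM, a 28.4-fold range, and Egr2 from 0.53 to 18.5 TPM, a 34.9-fold range. Rgs2 spanned only 31.36 to 45.54 TPM.

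Several libraries stood apart in these genes. P209L with the control ASO at 8 weeks, replicate 1, held the lowest value of all 35 libraries for 27 of the 41 members. Its Fos was 4.52 TPM beside 23.01 and 26.89 in its group, its Arc 22.63 beside 67.15 and 85.41, and its Nr4a1 23.22 beside 51.53 and 54.9. It was the lowest of its group for 75.6% of the members and for 44.1% of all tested genes. WT with the control ASO at 8 weeks, replicate 3, was the lowest of its group for 28 members, 68.3% against 30.2% of all genes, with Fos at 22.5 TPM beside 57.76 and 61.79. In that library all 14 cerebellar markers were also the lowest of the group (median difference -0.47 on the log2 scale), while 12 of 14 cortical and hippocampal neuron markers were the highest (median 0.47). In the R206W control ASO group, replicate 2 was the lowest for 38 members (92.7% against 32.6% of all genes) and replicate 3 the highest for 30 (73.2% against 28.6%), with blood markers 0.22 and 0.75 above their group mates at the median. The part of tissue makeup in these differences was not tested.

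**Figure D1:**
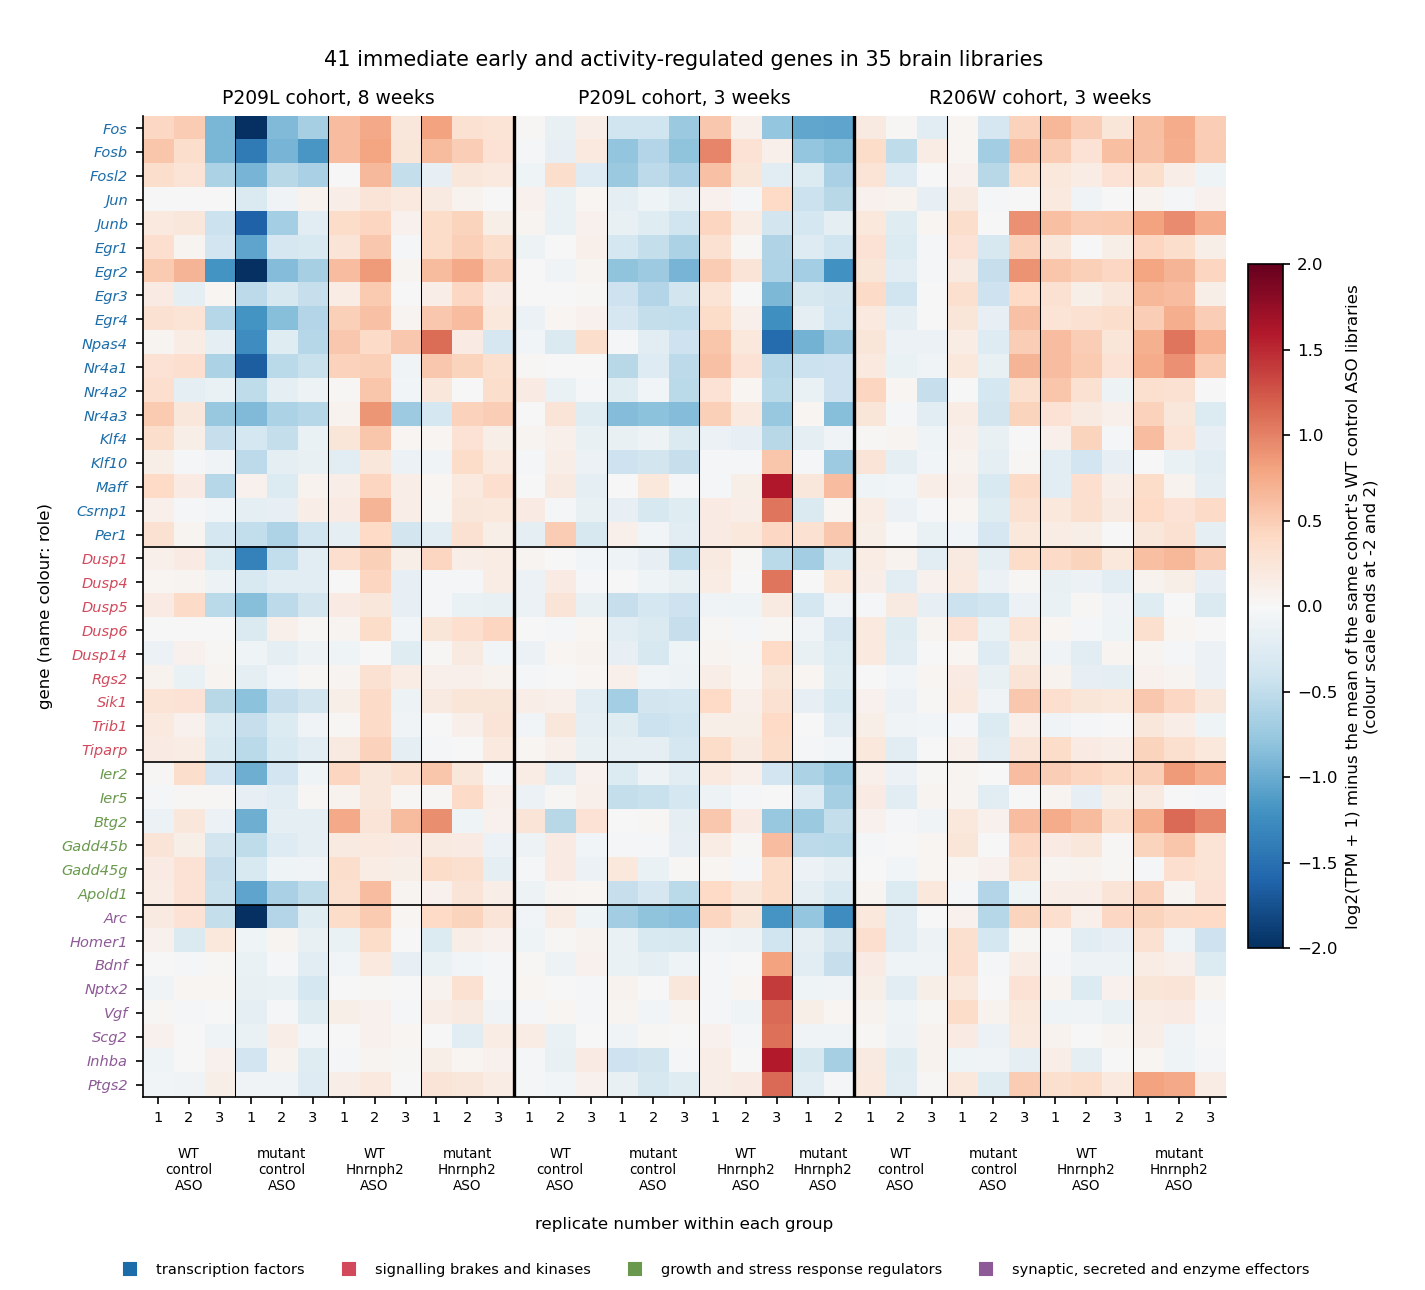
Each cell is log2(TPM + 1) of 1 gene in 1 library minus the mean of the WT control ASO libraries of the same cohort and age; genes are ordered by role and libraries by group, and the colour scale ends at -2 and 2. The dark blue column is P209L control ASO replicate 1 at 8 weeks, and the column that is blue for most transcription factors and red for most effectors is WT Hnrnph2 ASO replicate 3 of the P209L cohort at 3 weeks.

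A different pattern marked WT with the Hnrnph2 ASO in the P209L cohort at 3 weeks, replicate 3. It held the highest value of all 35 libraries for 13 members, while 9 others lay more than 1 log2 unit below its group mates. Of the 18 transcription factors, 13 were the lowest of their group there and 5 the highest. The neuron-specific factor Npas4 stood at 7.48 TPM beside 35.4 and 27.61, Arc at 59.79 beside 182.75 and 160.83, Egr4 at 18.72 beside 58.51 and 48.13, and Fos at 43.94 beside 111.04 and 81.4. The 5 on the high side were Maff (1.56 on the log2 scale above its group mates), Csrnp1 (0.91), Klf10 (0.57), Jun (0.37) and Per1 (0.23), and the phosphatase Dusp4 was 0.99 above. Of the 8 effectors, 6 were the highest of their group. Nptx2, a pentraxin that clusters AMPA receptors, reached 99.68 TPM beside 36.09 and 38.09, and Vgf 468.61 beside 207.01 and 201.54. Scg2 stood at 493.99 TPM beside 242.79 and 226.28. Inhba, the activin A subunit, was at 12.1 beside 3.78 and 3.38 TPM, and Bdnf at 20.46 beside 10.97 and 11.22. By role, the transcription factors had a median difference from the group mates of -0.68 and the effectors of 1.03. In that library 5 members lay more than 1 log2 unit above its group mates, where 1.30% of all genes did, and 1.25% lay more than 1 below.

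Genes outside the 41 moved in the same library. All 12 tested genes known to respond to glucocorticoids were the highest of the group there, with a median difference of 1.10. Fkbp5, the co-chaperone that glucocorticoids induce, stood at 60.64 TPM beside 15.87 and 16.59, and the kinase gene Sgk1 at 180.86 beside 53.45 and 58.02. The small heat shock gene Hspb1 was at 113.22 TPM beside 15.87 and 13.81, while the inducible Hspa1a was at 5.45 beside 6.24 and 5.41. All 5 tested blood markers were the lowest of the group (median difference -1.14). Of 41 tested further activity-regulated genes, 35 were the highest of the group. The part of stress, handling or blood content in this library was not tested. Some of the results that rest on it are given with and without it, and others only with it.

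**Figure D2:**
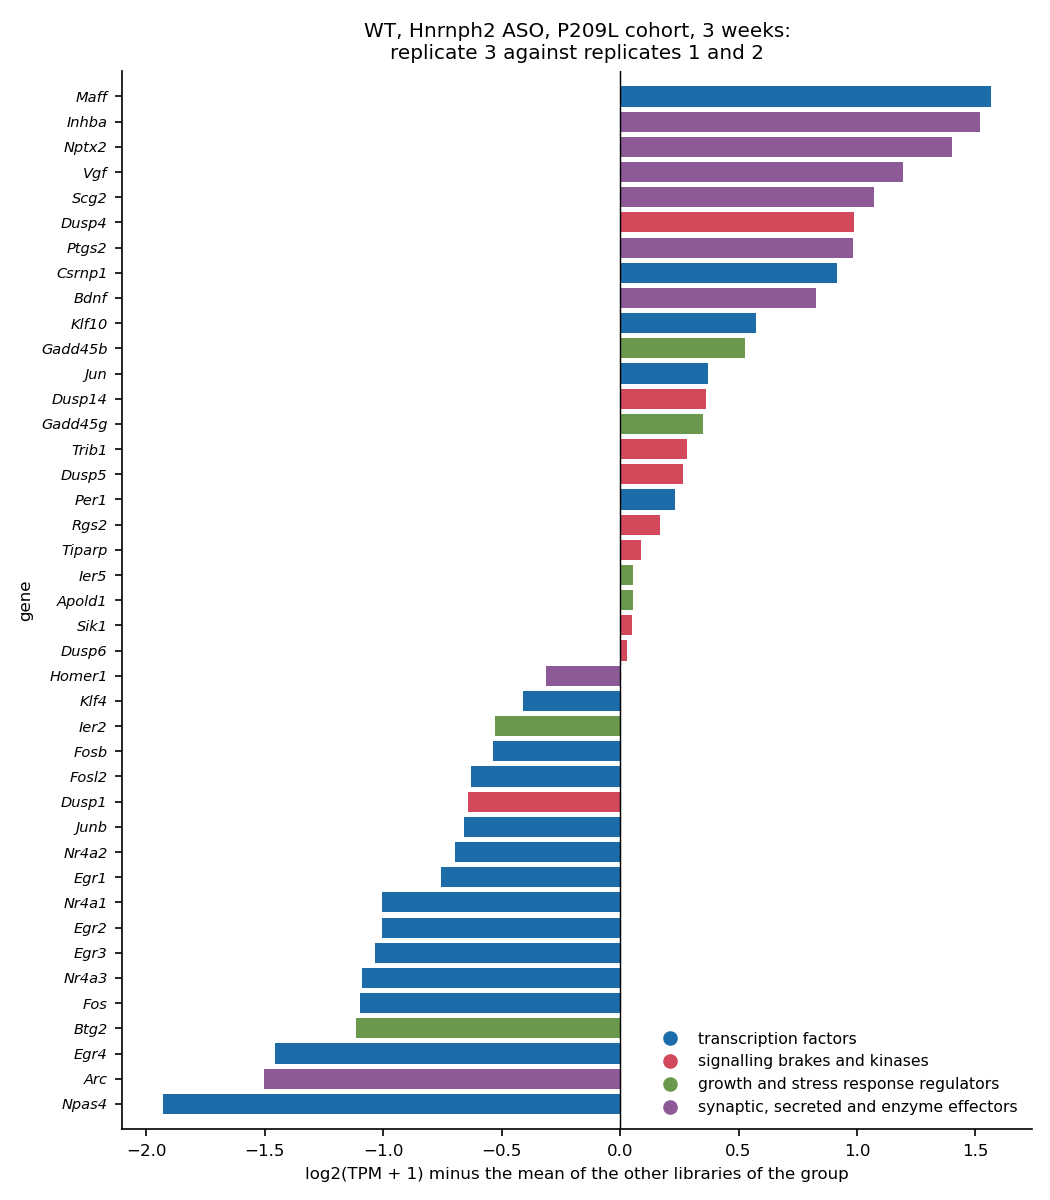
Bars give log2(TPM + 1) in WT Hnrnph2 ASO replicate 3 of the P209L cohort at 3 weeks minus the mean of replicates 1 and 2, for each of the 41 genes, coloured by role. Npas4 (-1.93) and Arc (-1.50) lie at the low end and Inhba (1.52) and Maff (1.56) at the high end.

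The first comparison asked how the mutations altered these genes in mice given the control ASO. In the average over the 3 cohorts, limma called 3 of the 41 lower in mutants and none higher, where 1.73% of the tested genes were called lower. These were Apold1, Dusp5 and Fosb. Their log2 differences were -0.47 (SE 0.10, adjusted p = 0.00411 with limma) for Apold1, -0.43 (SE 0.10, adjusted p = 0.00727) for Dusp5 and -0.63 (SE 0.17, adjusted p = 0.0326) for Fosb, which are changes of -27.9%, -26.0% and -35.5% in TPM + 1. The median of the 41 was -0.19, against 0.01 over all genes, and 35 were below 0, as were 47.2% of all genes. A further 14 were lower at an unadjusted p under 0.05 only. Over all genes 8.46% were lower at that threshold, called ones included.

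Apold1 (chromosome 6, 134982001 to 134986836 on the mm10 build) encodes a protein of blood vessel lining cells that is induced by growth factors and low oxygen. In the P209L cohort at 8 weeks it stood at 5.24, 5.89 and 3.16 TPM in WT and at 1.70, 2.59 and 2.95 in mutants. At 3 weeks it stood at 5.47, 6.18 and 6.12 TPM in WT and at 4.05, 4.46 and 3.78 in P209L. In both P209L cohorts every mutant library lay below every WT library. In the R206W cohort the values overlapped, with 7.80, 6.05 and 8.82 TPM in WT and 7.29, 4.67 and 6.96 in mutants. Its call held without any 1 of the 18 libraries. Of 9 markers of brain endothelium, 1 was lower in the average, Ly6c1 (-0.19, adjusted p = 0.0069 with limma). The summed markers ran from 313.48 to 336.93 TPM in WT and from 323 to 335.03 in P209L at 8 weeks, where the median difference was 0.11. At 3 weeks they were at 340.17 to 371.1 against 323.41 to 328.41 TPM in the P209L cohort, and at 374.76 to 386.05 against 328.94 to 366.93 in the R206W cohort. Of 8 markers of pericytes and smooth muscle, 2 were lower in the average (median -0.19), and 8 of 8 were below 0 in both cohorts at 3 weeks. Their sums did not overlap there, at 164.92 to 189.9 TPM in WT and 137.85 to 150.26 in P209L, and at 179.86 to 190.02 in WT and 140.46 to 161.85 in R206W. At 8 weeks they overlapped, at 162.74 to 181.24 and 161.8 to 181.87 TPM. The part of vessel content in the Apold1 difference was not tested.

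Dusp5 (chromosome 19, 53529145 to 53541809) encodes a nuclear phosphatase that switches off ERK. At 8 weeks it stood at 28.1, 33.12 and 16.86 TPM in WT and at 13.43, 17.06 and 19.24 in P209L, where 1 WT library lay among the mutants. At 3 weeks the groups did not overlap, with 27.6, 35.77 and 26.94 TPM in WT and 21.49, 23.23 and 22.26 in P209L. In the R206W cohort it was the member with the smallest p of the mutation comparison (-0.32, unadjusted p = 0.0145, adjusted p = 0.43 with limma), at 44.38, 50.84 and 40.17 TPM against 33.07, 33.68 and 41.35. Its call in the average also held without any 1 library.

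Fosb (chromosome 7, 19302696 to 19310118), the AP-1 subunit whose truncated form builds up under repeated stimulation, stood at 14.4, 12.27 and 4.56 TPM in WT and at 2.93, 4.5 and 3.66 in P209L at 8 weeks. At 3 weeks the values were 11.94, 10.72 and 13.99 TPM in WT and 6.65, 7.76 and 6.56 in P209L. Again no mutant library reached a WT library in the P209L cohorts. In the R206W cohort the mutants, at 11.88, 6.76 and 18.29 TPM, lay on both sides of WT at 15.18, 7.82 and 12.87. The Fosb call ended in 10 of 18 cases when single libraries were left out, with an adjusted p of at most 0.0829 with limma. In the P209L cohort these were WT replicates 1 and 2 and mutant replicates 1 and 3 at 8 weeks, and WT replicate 3 and mutant replicates 1 and 3 at 3 weeks. The others were R206W cohort WT replicates 1 and 3 and mutant replicate 2. Without the 2 libraries that stand apart most, P209L control ASO replicate 1 at 8 weeks and the WT Hnrnph2 ASO library with low transcription factors and high effectors, the adjusted p was 0.0586.

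Fos and Arc had larger differences than these in places but did not pass. Fos (chromosome 12, 85473890 to 85477274) stood at 57.76, 61.79 and 22.5 TPM in WT and at 4.52, 23.01 and 26.89 in P209L at 8 weeks. At 3 weeks it stood at 77.31, 68.45 and 83.54 TPM against 57.66, 57.61 and 45.26, without overlap, and in the R206W cohort at 86.49, 77.7 and 65.79 against 78.58, 60.16 and 105.31, with overlap. Its average difference was -0.66 (SE 0.23, adjusted p = 0.113 with limma). Arc (chromosome 15, 74669081 to 74672570) stood at 115.37, 123.42 and 72.8 TPM in WT and at 22.63, 67.15 and 85.41 in P209L at 8 weeks. At 3 weeks it was at 130.28, 151.21 and 127.67 TPM in WT and at 83.52, 77.54 and 75.9 in P209L, with no overlap. In the R206W cohort Arc overlapped, at 135.46, 101.14 and 115.83 TPM in WT and 123.61, 78.29 and 159.12 in mutants. Its average difference was -0.59 (SE 0.20, adjusted p = 0.0975 with limma). Among the other members with small p in their role, Fosl2 differed by -0.46 (adjusted p = 0.0852 with limma), the stress regulator Ier5 by -0.20 (0.0675), Trib1 by -0.23 (0.0915) and Sik1 by -0.27 (0.142).

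By role, 17 of 18 transcription factors were below 0 in the average with a median of -0.26, 8 of 9 brakes with -0.18, 5 of 6 growth and stress regulators with -0.11 and 5 of 8 effectors with -0.06. The secreted products Vgf and Scg2 had averages of 0.03 and 0.02, which for Vgf joined differences of -0.15 at 8 weeks and 0.22 in R206W, neither called. Vgf stood at 164.92 to 173.42 TPM in WT and at 144.13 to 165.06 in P209L at 8 weeks, and Scg2 at 217.29 to 244.19 and 209.66 to 252.96. The number of calls depended on single libraries. Counts under other settings, here and below, are given without the share of all genes called. They are therefore not results about the members alone. Without WT replicate 3 at 8 weeks, the WT library lowest in these genes, limma called 9 lower (Fos, Fosb, Fosl2, Egr2, Dusp5, Sik1, Trib1, Apold1 and Arc), and leaving out each of the others gave 2 to 4.

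**Figure D3:**
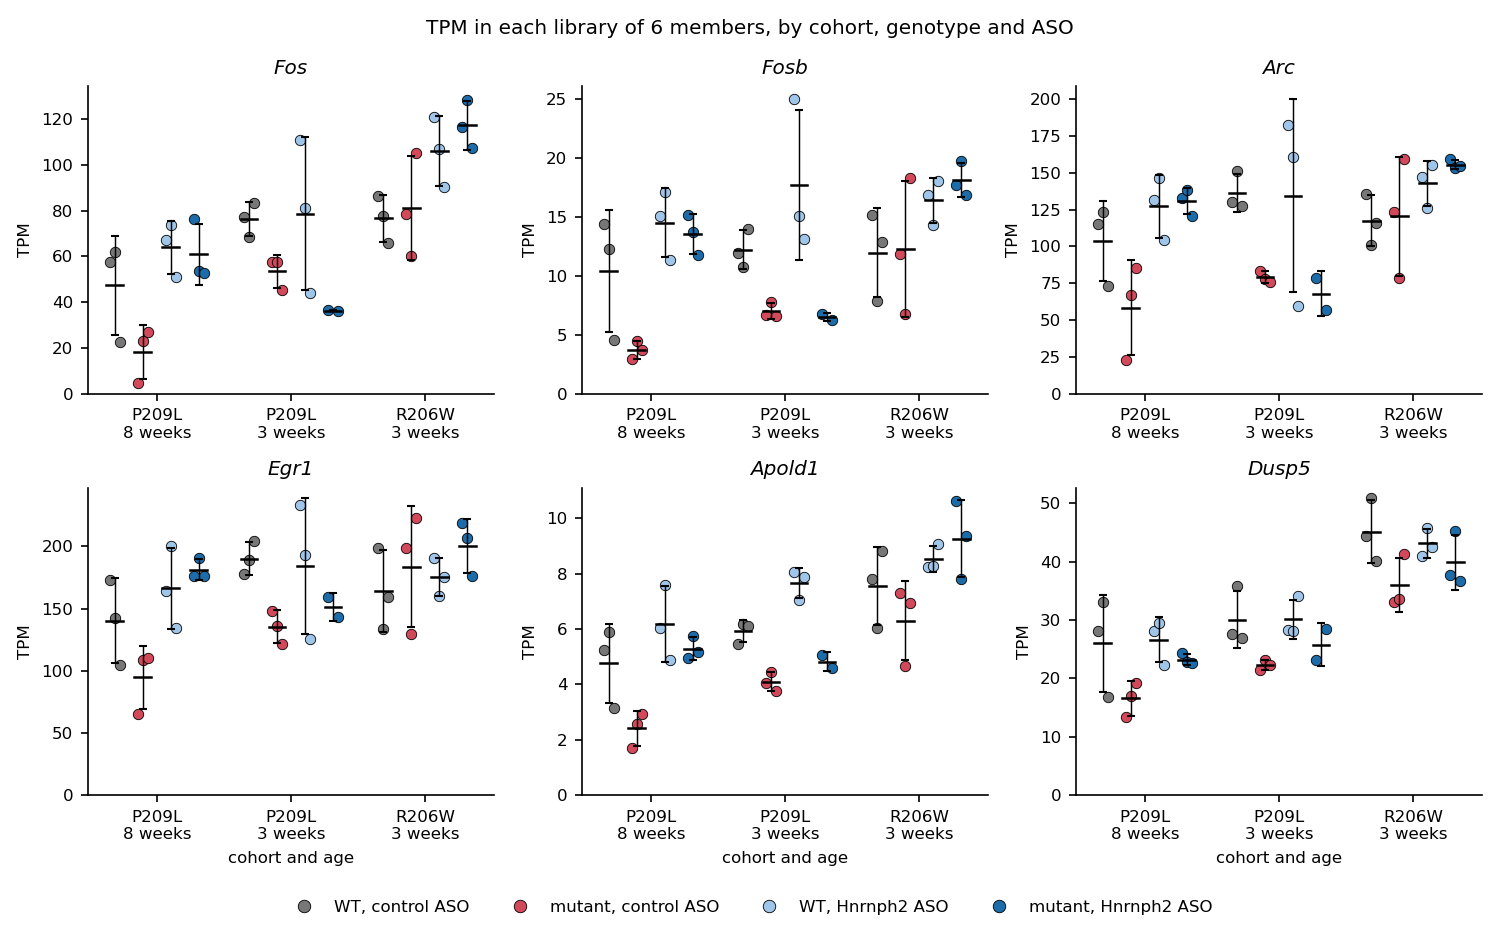
TPM in each library of 6 genes by cohort, genotype and ASO; points are libraries, horizontal lines group means and bars 1 SD, with 2 libraries in P209L Hnrnph2 ASO at 3 weeks. P209L control ASO libraries (red) lie below WT control ASO libraries (grey) for Apold1 and Fosb at both ages, and the R206W groups overlap.

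Within single cohorts, limma called none of the 41 for the mutation. At 8 weeks 0 were called (0.170% of genes were), with 16 lower (2.09% of genes) and none higher (4.19%) at an unadjusted p under 0.05. All 41 log2 differences were below 0, with a median of -0.32, where 39.9% of all genes were below 0. The medians were -0.63 for transcription factors, -0.27 for brakes, -0.39 for growth and stress regulators and -0.14 for effectors. In 11 members every P209L library lay below every WT library, a pattern seen in that direction in 3.50% of all genes. They were Fosb, Egr3, Egr4, Npas4, Klf10, Per1, Dusp4, Btg2, Apold1, Bdnf and Nptx2. The lowest mutant library did not set these alone: Egr4, for instance, stood at 37.21, 36.31 and 19.81 TPM in WT and at 12.47, 16.2 and 19.62 in P209L. Without WT replicate 3, limma called 3 lower (Fosb, Egr4 and Dusp5) and the median was -0.50.

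In the P209L cohort at 3 weeks 0 were called as well (0.133% of genes), with 14 lower (4.76% of genes) at an unadjusted p under 0.05 and none higher (4.09%). The median was -0.25 and 37 were below 0. The closest to a call was Apold1 (-0.44, adjusted p = 0.148 with limma). In 23 members every P209L library lay below every WT library, against 11.1% of all genes in that direction. Without the 2 libraries that stand apart most, of which the WT Hnrnph2 ASO library enters this fit only through the estimate of the spread, limma called Egr2 and Arc lower. Blood markers lay on the same side in this cohort, with 0 of 5 tested called, a median of -0.76 and summed levels of all 6 markers of 2191.54 to 3226.77 TPM in WT and 1184.67 to 1840.33 in P209L. Of 12 tested glucocorticoid-responsive genes 10 were above 0, 2 below and 0 called, with a median of 0.12. The 13 on that list summed to 1222.5 to 1474.9 TPM in WT and 1494.51 to 1776.64 in P209L. The part of these lists was not tested.

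In the R206W cohort limma called 0 of the 41 (0.133% of genes), with 2 higher (4.66% of genes) and 1 lower (4.25%) at an unadjusted p under 0.05. The median was 0.07 with 28 above 0. The 2 members whose mutant libraries all lay above WT were Vgf, at 240.54, 196.66 and 216.81 against 196.25, 175.69 and 188.88 TPM, and the antiproliferative regulator Btg2, at 22.82, 20.83 and 30.73 against 20.81, 19.4 and 18.75. In that direction 6.33% of all genes were without overlap. The mutant libraries ran far apart here, and without replicate 2 the median was 0.24. The difference between the P209L and the R206W effect at 3 weeks was tested directly. Its median was -0.30 with 40 of 41 below 0, but limma called none (0% of genes). Lower at an unadjusted p under 0.05 were 3, Sik1 (-0.69), Dusp6 (-0.47) and Ier5 (-0.37), where 1.23% of genes were. The difference between the P209L effects at 8 and at 3 weeks likewise had 0 calls (0% of genes) and a median of -0.11. None had an unadjusted p under 0.05, where 3.11% of genes did. Without WT replicate 3 at 8 weeks that median was -0.28.

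The second comparison asked what the Hnrnph2 ASO did in mutants. In the average over the cohorts limma called 5 of the 41 higher with the Hnrnph2 ASO than with the control ASO and none lower, where 1.19% of genes were called higher. They were Apold1 (0.53, SE 0.10, adjusted p = 0.0027), Fosb (0.72, SE 0.18, 0.0249), Egr4 (0.61, SE 0.16, 0.0402), Sik1 (0.39, SE 0.11, 0.0428) and Nr4a1 (0.61, SE 0.17, 0.0488). Their differences in TPM + 1 are ratios of 1.45, 1.65, 1.53, 1.31 and 1.52. The median of the 41 was 0.26, against 0.002 over all genes, with 36 above 0. Higher at an unadjusted p under 0.05 were 22 members and 7.39% of all genes. The mutant control ASO libraries enter both this comparison and the mutation comparison, so opposite signs in the 2 are partly built in, and they are given side by side only as values.

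Apold1 with the Hnrnph2 ASO stood at 4.96, 5.76 and 5.16 TPM in P209L at 8 weeks, at 5.06 and 4.58 at 3 weeks and at 10.62, 7.83 and 9.36 in R206W. In each cohort all of these lay above all mutant control ASO libraries. Its call held without any 1 of the 17 libraries. None of the 9 endothelial markers passed in this comparison, and their median was 0.03. Fosb reached 15.2, 13.7 and 11.76 TPM in P209L at 8 weeks and 17.75, 19.74 and 16.89 in R206W, but 6.73 and 6.26 in P209L at 3 weeks, below or among the control values there. In R206W 1 control library, at 18.29 TPM, lay among the treated ones.

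Egr4 (chromosome 6, 85511121 to 85513589), another EGR zinc finger factor, went from 12.47, 16.2 and 19.62 to 43.96, 46.36 and 34.98 TPM in P209L at 8 weeks. At 3 weeks it stood at 35.31, 32.11 and 31.83 against 39.45 and 34.01, and in R206W at 47.54, 35.48 and 60.32 against 56.89, 66.44 and 56.33, both with overlap. Sik1 (chromosome 17, 31844248 to 31855804) stood at 5.21, 6.92 and 7.53 against 11.35, 12 and 11.96 TPM at 8 weeks, and at 7.07, 9.03 and 9.2 against 10.6 and 9.48 at 3 weeks. In R206W its values overlapped, at 15.12, 12.31 and 19.29 against 19.39, 17.77 and 15.34 TPM. Nr4a1 (chromosome 15, 101253902 to 101274795) stood at 23.22, 51.53 and 54.9 against 109.3, 102.36 and 94.13 TPM at 8 weeks. At 3 weeks it was at 65.89, 81.7 and 67.68 against 72.61 and 73.23 TPM, and in R206W at 113.7, 88.66 and 158.27 against 165.66, 187.45 and 140.94. For Egr4 and Nr4a1 the P209L cohort at 8 weeks was thus the only one of the 3 without overlap.

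The other calls rested on single libraries more than that of Apold1 did. With limma, Fosb ended without any 1 of 6 libraries (adjusted p up to 0.0748), and Egr4, Sik1 and Nr4a1 without any 1 of 13 of the 17 each (up to 0.0886, 0.0965 and 0.138). The count was 9 without R206W control ASO replicate 3. It was 1, Apold1 alone, without P209L at 8 weeks control ASO replicate 1 or Hnrnph2 ASO replicate 1, either P209L Hnrnph2 ASO library at 3 weeks, R206W control ASO replicate 2 or R206W Hnrnph2 ASO replicate 2. In the P209L cohort it was 2 or 3 without control ASO replicate 2 or Hnrnph2 ASO replicate 2 or 3 at 8 weeks, or without control ASO replicate 1, 2 or 3 at 3 weeks. It was 2 without R206W control ASO replicate 1 or Hnrnph2 ASO replicate 1. With the replicate number as a block 2 were called, Fosb and Apold1, and with the name stem as a random block 3, these and Egr4. By role, the medians in the average were 0.39 for transcription factors, 0.26 for brakes, 0.18 for growth and stress regulators and 0.05 for effectors.

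The cohorts were also tested singly. In P209L at 8 weeks limma called 0 of the 41 (0.0908% of genes), while 30 were higher (4.00% of genes) at an unadjusted p under 0.05 and none lower (2.27%). The median was 0.46 and 40 were above 0. In 30 members every treated library lay above every control ASO library, against 7.44% of all genes in that direction. The largest difference was that of Fos, at 76.49, 53.61 and 52.61 TPM against 4.52, 23.01 and 26.89 (1.98, adjusted p = 0.345 with limma), and the smallest p were those of Egr4 (1.33, 0.077) and Fosb (1.64, 0.107). A fit over all libraries, which takes the spread from all 12 groups, called 10 of them in this cohort: Fos, Fosb, Junb, Egr1, Egr2, Egr4, Nr4a1, Dusp1, Sik1 and Apold1. The share of all genes that this fit called is not given here, so the count cannot be set against it. Without control ASO replicate 1, the lowest library, the median was 0.36 and 0 were called in the fit of this cohort.

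In P209L at 3 weeks, with 2 treated libraries, limma called 0 (0.0969% of genes), and the median was 0.003. At an unadjusted p under 0.05, 1 was higher (3.01% of genes) and 3 were lower (3.80%). In 8 members the treated libraries lay above all controls (12.6% of genes), Egr3, Maff, Per1, Dusp4, Sik1, Trib1, Tiparp and Apold1. In 8 they lay below (12.5% of genes), Fos, Jun, Npas4, Ier2, Btg2, Gadd45b, Bdnf and Nptx2. Fos stood at 36.59 and 36.09 TPM with the Hnrnph2 ASO against 57.66, 57.61 and 45.26. In no cohort, P209L or R206W, does a name stem occur under both ASOs, so the ASO and the stem cannot be told apart. In R206W limma called 0 (0.0970% of genes), with 10 higher (3.54% of genes) and none lower (4.20%) at an unadjusted p under 0.05 and a median of 0.17. There Fos, at 116.45, 128.41 and 107.3 TPM, lay above 78.58, 60.16 and 105.31, and Npas4, Dusp1, Btg2 and Apold1 also did not overlap (5.11% of genes in that direction). Dusp1 stood at 102.86, 107.35 and 95.6 TPM against 76.17, 59.06 and 87.54, and Npas4 at 32.25, 41.71 and 31.84 against 21.44, 15.97 and 27.43. Without R206W control ASO replicate 3 limma called Ier2 and Btg2 higher.

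**Figure D4:**
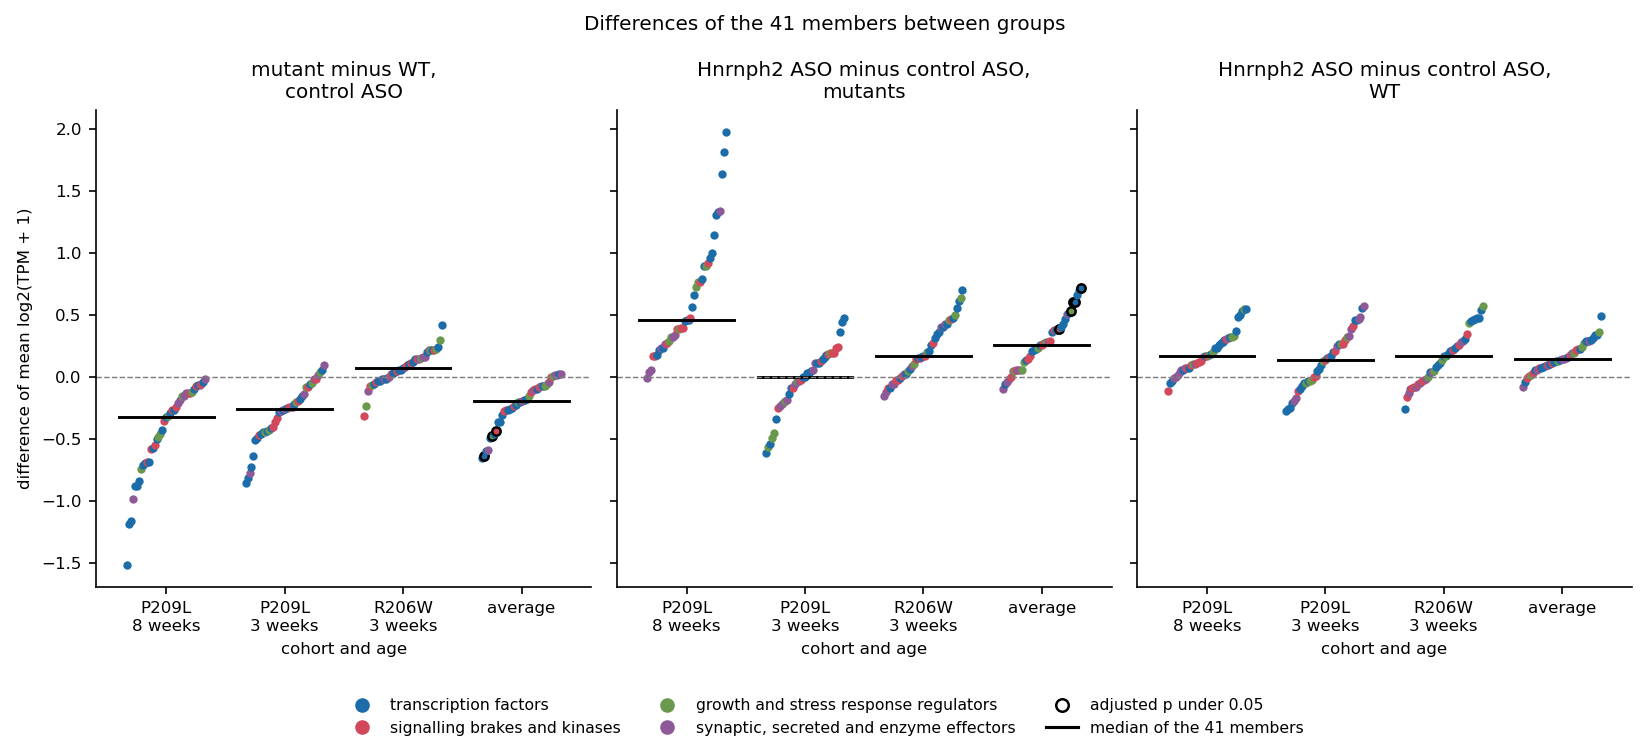
Each point is the difference of group means of log2(TPM + 1) of 1 of the 41 genes, coloured by role and sorted within a cohort; black lines are medians and black outlines mark an adjusted p under 0.05 with limma. The medians for the mutation are -0.32, -0.25 and 0.07 in the 3 cohorts, those for the ASO in mutants 0.46, 0.003 and 0.17, and those for the ASO in WT 0.17, 0.14 and 0.17.

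In WT mice the same ASO gave no calls. In the average limma called 0 of the 41 (0.187% of genes), with 11 higher (5.80% of genes) and none lower (3.69%) at an unadjusted p under 0.05. The median was 0.14, against 0.02 over all genes, and 38 were above 0. The smallest p in their roles were those of Csrnp1, a nuclear factor induced by AXIN1 (0.34, adjusted p = 0.214 with limma), Fosb (0.49, 0.309), Apold1 (0.28, 0.323), Tiparp (0.23, 0.353) and Ptgs2, the inducible cyclooxygenase (0.29, 0.371). Within cohorts 0 were called at 8 weeks (0.0182% of genes), at 3 weeks in the P209L cohort (0.0121%) and in the R206W cohort (0.0121%). Higher at an unadjusted p under 0.05 were 2, 3 and 7, where 2.06%, 2.74% and 2.38% of genes were. In the last cohort 1 was lower, where 4.48% of genes were. All treated libraries lay above all controls for 4 members at 8 weeks (4.73% of genes) and for 3 at 3 weeks in the P209L cohort (5.55%). In the R206W cohort 11 members lay above and none below, where 825 of 16489 genes lay above and 13.0% did not overlap in either direction. In that cohort, as in the P209L cohorts, control ASO and Hnrnph2 ASO libraries share no name stem. The ASO and whatever the stem stands for therefore cannot be told apart. The 11 were Fos, Junb, Egr2, Egr4, Npas4, Nr4a1, Csrnp1, Dusp1, Sik1, Ier2 and Btg2. Fos stood there at 121.04, 107.07 and 90.57 TPM against 86.49, 77.7 and 65.79, and Junb at 101.93, 96.11 and 96.84 against 77.44, 56.47 and 68.73. In that cohort blood markers summed to 3905.89 to 4975.26 TPM in treated and 2050.03 to 2664.51 in control WT (0 of 5 called, median difference 0.96), and their part was not tested. In the P209L cohort at 3 weeks, leaving out the library with low transcription factors and high effectors, WT replicate 3, gave a median of 0.13. Csrnp1 stood in that library at 23.99 TPM beside 12.41 and 12.12 in its group mates, and Ptgs2 at 8.74 beside 3.87 and 3.97. The averages of Csrnp1 and Ptgs2 are not given without it.

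Whether the ASO acted differently in mutants and in WT was tested as an interaction. limma called 0 of the 41 in the average (0.302% of genes), with a median of 0.13. With an unadjusted p under 0.05, 1 was higher, Egr4 (0.47), and 1 lower, Jun (-0.19). Of all genes, 2.78% were higher and 4.48% lower at that threshold. By cohort 0 were called at 8 weeks (0.00605% of genes), where 8 were higher (1.71% of genes) at an unadjusted p under 0.05 and the median was 0.29. In the P209L cohort at 3 weeks 0 were called (0.0363%), with 2 lower (2.82% of genes) at an unadjusted p under 0.05 and a median of -0.14. These values are not given without the WT Hnrnph2 ASO library with low transcription factors and high effectors. In the R206W cohort 0 were called (0.0182%) and none passed an unadjusted p of 0.05, where 2.20% of genes did. The median was 0.06, or -0.09 without R206W control ASO replicate 2.

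The third comparison set treated mutants beside control WT mice, the groups that share neither genotype nor ASO. In no cohort do these groups share a name stem either, so the stem cannot be told apart from genotype and ASO. In the average limma called 0 of the 41, where 4.83% of genes were called. With an unadjusted p under 0.05, 1 was lower (7.98% of genes) and none higher (10.7%). The 1 was Jun (-0.13, adjusted p = 0.24 with limma). The median was 0.07. A p that misses the threshold does not show equal levels. At 8 weeks 0 were called (0.00605% of genes) and 1 was higher at an unadjusted p under 0.05 (4.47% of genes), Dusp6 (0.34). The median was 0.17, with 4 members above all WT libraries (5.90% of genes). Bdnf lay the other way, with all 3 treated libraries below all WT libraries. The share of all genes in that direction is not given here, so this is not a result about Bdnf alone. Fos stood at 76.49, 53.61 and 52.61 TPM in treated P209L and at 57.76, 61.79 and 22.5 in control WT.

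For treated P209L mutants at 3 weeks 0 were called (0.0121% of genes). With an unadjusted p under 0.05, 11 were lower (6.75% of genes) and none higher (5.21%). The median was -0.28 with 37 below 0. In 23 members both treated libraries lay below all WT control libraries, against 15.4% of genes. For Maff and Vgf both lay above all WT control libraries, a direction for which the share of all genes is not given here. Fos was at 36.59 and 36.09 TPM against 77.31, 68.45 and 83.54 (-1.05, adjusted p = 0.227 with limma), and Jun at 33.64 and 30.76 against 48.72, 41.68 and 47.2 (-0.50, adjusted p = 0.196). Without the 2 libraries that stand apart most, limma called 6 lower, Fos, Jun, Egr2, Ier2, Gadd45b and Arc. Without treated replicate 1, which left 1 treated library that was assumed to vary like the other groups, it called Ier5 lower. Blood markers summed to 1019.89 to 1613.12 TPM in the treated mutants and 2191.54 to 3226.77 in WT (0 of 5 called, median -1.02). Glucocorticoid-responsive genes summed to 1268.6 and 2659.08 TPM in the 2 treated libraries and to 1222.5 to 1474.9 in WT. Of 12 tested, 11 were above 0, 1 below and 0 called, with a median of 0.47. The part of these lists was not tested.

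In R206W limma called 0 for treated mutants against control WT (0.0182% of genes). With an unadjusted p under 0.05, 14 were higher (6.36% of genes) and none lower (6.22%). The median was 0.21, and 14 members lay above all WT control libraries (8.88% of genes). Not all lay that way: 2 of the 3 treated libraries were below all WT control libraries for Dusp5. For Nr4a3, Klf4, Klf10, Maff, Per1, Rgs2, Trib1, Homer1 and Bdnf 1 treated library each was. Btg2 stood at 32.84, 44.44 and 39.24 TPM against 20.81, 19.4 and 18.75 (0.94, adjusted p = 0.122 with limma), Ier2 at 32.55, 42.42 and 38.95 against 24.86, 21.23 and 23.43 (0.68, 0.147), and Npas4 at 32.25, 41.71 and 31.84 against 22.91, 17.74 and 17.68. Same-numbered libraries deviated together in this comparison, and with the replicate number as a block limma called 1 of them higher, Btg2. Treated and control WT libraries of this cohort share no name stem, so genotype and ASO cannot be told apart from the stem.

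The 8-week and 3-week P209L cohorts were also set against each other, in a fit of all libraries. Age and the collection of each cohort cannot be told apart. In the average of the 4 groups limma called 14 of the 41 lower at 8 weeks and none higher, where 26.6% of genes were called lower. The median was -0.15, against -0.03 over all genes. The effectors Nptx2 (-0.59, SE 0.11, adjusted p = 7.8e-05) and Vgf (-0.44, SE 0.09, adjusted p = 0.000229) and the phosphatase Dusp6 (-0.34, SE 0.06, adjusted p = 8.6e-05) had the smallest p. Nptx2 (chromosome 5, 144545887 to 144557478) stood at 25.52, 27.62 and 27.8 TPM at 8 weeks and at 38.11, 36.9 and 36.17 at 3 weeks in WT with the control ASO. Vgf (chromosome 5, 137025301 to 137033351) stood at 173.42, 164.92 and 171.88 against 210.63, 218.49 and 211.03 TPM there. Dusp6 (chromosome 10, 99263231 to 99267489), a cytoplasmic ERK phosphatase, stood at 36.13, 36.61 and 35.94 against 53.72, 53.14 and 55.68. In these WT libraries the 2 ages did not overlap for any of the 3 genes. The libraries also enter the average by which the 3 were picked, so this adds no separate support. The share of all genes without overlap between the ages is not given here.

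The others called lower in the average were Dusp1 (-0.38), Ier2 (-0.33), Dusp4 (-0.28), Apold1 (-0.27), Jun (-0.15), Trib1 (-0.20), Dusp5 (-0.24), Maff (-0.41), Btg2 (-0.40), Fos (-0.53) and Egr4 (-0.34), with adjusted p from 0.00505 to 0.0494 with limma. Leaving out single libraries of the 23 ended the Fos call in 14 cases, with an adjusted p of up to 0.0872, and the Egr4 call in 17, with up to 0.107. Those of Btg2 and Dusp5 ended in 4 and 3 cases (up to 0.066 and 0.0799), and those of Jun, Trib1 and Maff without 1 of the treated P209L libraries at 3 weeks (0.0576, 0.0667 and 0.0735). Without the 2 libraries that stand apart most, Jun, Dusp5, Trib1 and Apold1 were not called (adjusted p from 0.051 to 0.091). Other markers moved with age too: of 8 oligodendrocyte markers 8 were lower (median -0.98), of 5 blood markers 5 (-0.62), of 12 glucocorticoid-responsive genes 6 were lower and 1 higher, and of 6 heat shock genes 4 were higher. Their part was not tested.

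The age difference was also taken within each group. In WT with the control ASO limma called 2 lower (8.66% of genes were), Dusp6 (-0.57, adjusted p = 0.00221) and Jun (-0.31, 0.0352). That count was 4 without replicate 2 at 3 weeks, 1 without replicate 1 or 3 at 3 weeks or replicate 1 at 8 weeks, and 10 without the 2 libraries that stand apart most, which enter it only through the estimate of the spread. In P209L with the control ASO 10 were lower (6.23% of genes), Fos (-1.81, adjusted p = 0.00401), Npas4 (-1.19), Egr2 (-1.16), Btg2 (-1.08), Egr4 (-1.02), Dusp1 (-1.0), Junb (-0.89), Ier2 (-0.87), Nptx2 (-0.75) and Apold1 (-0.59). Fos, Dusp1 and Nptx2 were called without replicate 1 at 8 weeks, the lowest library, and the count was 4 without replicate 1 and 6 without replicate 2 at 3 weeks. In WT with the Hnrnph2 ASO 3 were lower (8.78% of genes), Nptx2 (-0.91), Vgf (-0.60) and Dusp6 (-0.45). Without replicate 3 at 3 weeks, the library with high effectors, and likewise without replicate 3 at 8 weeks, Nptx2 alone was called. The count was 9 without replicate 1 at 3 weeks, 8 without replicate 2 and 6 without replicate 2 at 8 weeks. In P209L with the Hnrnph2 ASO the called members were higher, with 2 at 8 weeks (7.40% of genes were called higher), Ier5 (0.48, adjusted p = 0.0095) and Gadd45b (0.46, adjusted p = 0.0464). There the count was 0 without replicate 2 at either age, 1 without replicate 1 at either age, 5 with median-of-ratios scaling and 8, of which 7 were higher, without the 2 libraries that stand apart most. Whether the age differences differed between the 4 groups was not tested.

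**Figure D5:**
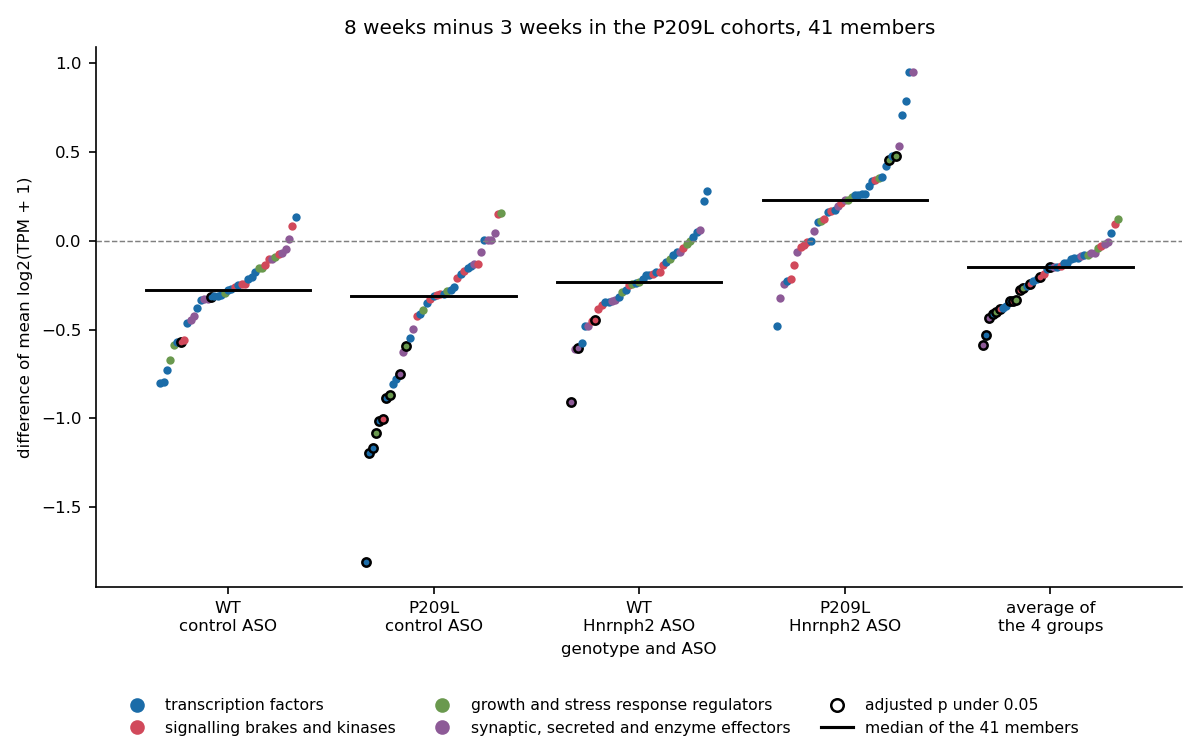
Each point is the 8-week minus the 3-week group mean of log2(TPM + 1) of 1 of the 41 genes in the P209L cohorts, by genotype and ASO, coloured by role; lines are medians and black outlines mark an adjusted p under 0.05 with limma. The medians are -0.28, -0.31, -0.23 and 0.23 in the 4 groups and -0.15 in their average.

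WT mice of the R206W and P209L cohorts, both at 3 weeks, showed how far cohorts differed without a mutation. limma called 3 of the 41 higher in the R206W cohort (10.9% of genes were) and 5 lower (16.2%), over both ASOs. Higher were Dusp5 (0.54, adjusted p = 0.0026), the zinc finger factor Klf4 (0.44, 0.0133) and the clock gene Per1 (0.46, 0.0203). Lower were Jun (-0.31, 0.00317), Inhba (-0.69, 0.00439), Vgf (-0.41, 0.0151), Ptgs2 (-0.41, 0.0312) and Nptx2 (-0.41, 0.0383). With the control ASO, Dusp5 stood at 44.38, 50.84 and 40.17 TPM in the R206W cohort and at 27.6, 35.77 and 26.94 in the P209L cohort, without overlap. Nptx2 and Ptgs2 were not called without WT Hnrnph2 ASO replicate 3 of the P209L cohort (-0.18 and -0.24, adjusted p = 0.0841 and 0.113 with limma). The total was 5 without P209L cohort WT control ASO replicate 1 or replicate 3. Of 14 cerebellar markers 14 were higher in the R206W cohort (median 0.59), 5 of 8 striatal markers lower (-0.46) and 6 of 14 cortical ones lower (-0.25). The part of dissection in the cohort differences was not tested.

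Genes outside the 41 were counted for the mutation in the same way. Of 41 tested further activity-regulated genes, limma called none lower in the average and 1 higher, the neuropeptide gene Cort (0.49, adjusted p = 0.00013), with a list median of 0.04; the lists were not tested against each other. Of 27 genes that carry signals from synapse to nucleus, such as Creb1, Srf and Mef2c, it called 0, with a median of -0.003. Of 17 clock genes 1 was higher, Hlf (0.40, adjusted p = 0.019), and of 12 glucocorticoid-responsive genes 0 were called (median -0.03). With the Hnrnph2 ASO in mutants, Cort was lower (-0.28, adjusted p = 0.0498 with limma) and none of the other 40 activity-regulated genes, the 27 signalling genes or the 12 glucocorticoid-responsive genes was called. Their medians were 0.05, 0.04 and 0.15. In the mutation average 6 of 14 cerebellar markers were lower and 1, Slc1a6, higher (median -0.27), 4 of 8 oligodendrocyte markers were lower (-0.22), 2 of 8 pericyte and smooth muscle markers were lower (-0.19) and 0 of 8 general neuron markers were called (median 0.01). Of 6 heat shock genes 2 were lower, Cryab and Hsph1 (list median -0.26), with summed levels at 3 weeks of 388.76 to 433 TPM in WT and 297.85 to 328.14 in P209L, and of 395.76 to 441.04 in WT and 302.68 to 367.5 in R206W. How far these markers account for the differences of the immediate early genes was not tested.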

How the data were processed

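RNA of 35 mouse brain libraries in 12 groups was deposited by the authors as 1 table of TPM per gene. Per the submitters' processing notes, the tools were RSEM, STAR 2.7.1a, Trim Galore and GATK 4.0.4.0, with the mm10 build; annotation, filters and strand setting are not given in the sources used here. TPM keeps no read totals, so depth and counting error are unknown. WT libraries at 3 weeks were assigned to a cohort by the prefix of the library name in their titles. Coordinates came from a RefSeq table of GRCm38.p6.

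Tests used limma 3.58.1 under R 4.3.3, two-sided, with a mean-variance trend in eBayes. They took every gene whose TPM averaged 1 or more in the fitted libraries, after adding a pseudocount of 1 and taking log2, which understates the change of low genes. Within a cohort the fit held its 4 groups; averages, age and cohort differences came from all 35 libraries. All 41 members passed the filter, among 16516, 16518, 16489 and 16556 tested genes. The Benjamini-Hochberg adjustment ran over all tested genes, with a threshold of 0.05, and every adjusted p is from limma. The fits were also run on simulated data in which each gene varied independently. Such data do not cover libraries in which many members move together. The 41 genes, their roles and the other lists were chosen with earlier results of these data known. Full statistics were given for called members and for the 3 with the smallest p per role in an average. Same-numbered libraries deviated together, with every correlation over 0.1 across genes, only for treated mutants against control WT at 8 weeks (0.12 to 0.24) and in the R206W cohort (0.10 to 0.20). Alternatives were other pseudocounts, no filter, other scalings, replicate and stem blocks, other fits, each library left out, and, chosen after seeing the data, leaving out 2 libraries: P209L control ASO replicate 1 at 8 weeks and WT Hnrnph2 ASO replicate 3 of the P209L cohort at 3 weeks.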

Additional observations from a re-analysis of the deposited data

How the results depend on the processing

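Of 1124 recomputed values of called members, none changed sign, 924 kept their call and 200 lost it. Of 594 recomputed counts of called members, 533 stayed within 1.5 times. The shares of all genes called under these settings are not given here, so the counts are not results about the members alone. Without a filter on low values the counts were 1 (ASO in mutants, average), 9 (age, average), 1 (age, WT control ASO), 1 (age, P209L Hnrnph2 ASO) and 5 (WT cohorts). With median-of-ratios scaling, which shifted the median of all genes by at most 0.065, the age counts were 1 in WT control ASO and 5 in P209L Hnrnph2 ASO, and 4 in the latter without mitochondrial genes. With the replicate block they were 5 for the mutation average, 2 for the ASO in mutants, 6 for age in WT Hnrnph2 ASO and 1 for treated R206W mutants against WT; the block changed no other count by over 1.5 times. With the library-name stem as a random block, 3 were called for the ASO in mutants; it could not be fitted at 8 weeks alone. With only the compared groups, 1 was called for the ASO in P209L at 8 weeks, 2 for the mutation at 3 weeks, and 1 each for treated P209L at 3 weeks and treated R206W against WT. With a fit over all libraries, 1 was called for the mutation at 8 weeks, 10 for the ASO in P209L at 8 weeks and 1 for treated P209L at 3 weeks. Without the 2 libraries that stand apart, the counts were 2 for the mutation and 6 for treated mutants at 3 weeks, and for age 10 in WT control ASO and 8 in P209L Hnrnph2 ASO. Leaving out each library in turn gave 0 to 3 (mutation, 8 weeks), 2 to 9 (mutation average), 0 to 2 (ASO in R206W), 1 to 9 (ASO in mutants, average), 0 to 1 (treated P209L, 3 weeks), 5 to 11 (WT cohorts), and for age 1 to 4, 3 to 9, 1 to 9 and 0 to 3 in WT control ASO, P209L control ASO, WT Hnrnph2 ASO and P209L Hnrnph2 ASO. The medians ranged from -0.50 to -0.24 (mutation, 8 weeks), -0.02 to 0.24 (mutation, R206W), -0.09 to 0.16 (interaction, R206W), -0.28 to 0.004 (difference of the P209L effects), -0.37 to -0.13 (age, WT control ASO) and -0.32 to -0.08 (age, WT Hnrnph2 ASO). Depth is unknown, and no detection limit was measured.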
